A study of Mus musculus with 4 samples.

Results

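Clot formation and clot removal were followed in mouse kidney RNA through 9 genes. They were the 3 fibrinogen chain genes Fga, Fgb and Fgg, F13a1 (for the catalytic chain, A, of factor XIII), F3 (tissue factor), Thbd (thrombomodulin), Plat and Plau (the tissue-type and urokinase-type plasminogen activators) and Plaur (the urokinase receptor). They made up 9 of the 20656 genes that could be named on the array and 12 of its 55668 analysed probes. Probes were taken by matching the RefSeq accession on the array to these genes. F13a1, Fga and F3 had 2 probes each and the other 6 genes had 1 probe. The genes were selected on their measured signals in bile duct ligated against sham-operated animals, so the member differences given here are a description and carry no test.

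Total RNA came from kidney 2 weeks after bile duct ligation (BDL), a surgical block of bile flow used to model cholestasis, or after a sham operation. There were 2 samples per group, called biological replicates in the series' design text, each hybridised alone to a 1-colour array. Strain, sex, age and genotype are not given in the sources used here, and the operation is the only difference between the groups that they name. Each value is the log2 processed signal less the array's own 75th percentile, and a difference is the BDL mean less the sham mean.

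On each array 57.7% to 63.1% of the spots were well above background and 0 were saturated, and precision is limited by having 4 arrays. All 12 kidney markers listed, among them Umod of the thick limb and Slc34a1 of the proximal tubule, were well above background on all 4 arrays. Of 4 lists that stood apart on 1 array, the interferon response genes (a list added after the values were seen) summed to 29.4 times the 75th percentile in sham replicate 1 against 10.6 in sham replicate 2 and 8.75 and 6.98 on the BDL arrays. Platelet genes summed to 14.2 in BDL replicate 1 and to between 2.09 and 2.53 on the other arrays. Urothelial genes summed to 89.3 in BDL replicate 1 and to between 20.3 and 29.1 elsewhere. Red blood cell genes summed to 1530 in BDL replicate 1 against 865 in BDL replicate 2 and 758 and 617 in sham.

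Fibrinogen is a plasma protein built from pairs of alpha, beta and gamma chains, made mainly by hepatocytes and induced in the acute phase response. Thrombin turns it into fibrin, factor XIII cross-links the fibrin, and plasmin, made from plasminogen by Plat and Plau, dissolves it. In the kidney, urokinase is made by tubule epithelium, while tissue-type plasminogen activator and thrombomodulin are known chiefly from endothelium. The A subunit of factor XIII is made by macrophages and megakaryocytes.

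Fgg, Fga and Fgb are neighbours in the genome, and the stretches before their starts are shown because these are the chains of 1 protein and their array patterns differed. The sequences are RefSeq's, build GRCm38.p6, 250 bases ending at the base before the annotated start, read 5′ to 3′ on the strand of the gene. The stretches are chr3:83007474-83007723 on the plus strand for Fgg, chr3:83025903-83026152 on the plus strand for Fga and chr3:83049864-83050113 on the minus strand for Fgb. Capitals mark every match on either strand to 6 motifs that were searched.
Fgg: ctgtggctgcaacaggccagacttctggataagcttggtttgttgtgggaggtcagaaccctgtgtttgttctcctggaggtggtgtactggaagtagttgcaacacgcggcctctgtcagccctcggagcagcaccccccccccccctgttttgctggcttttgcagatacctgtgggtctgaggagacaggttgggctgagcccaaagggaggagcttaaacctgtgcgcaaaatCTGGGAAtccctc
Fga: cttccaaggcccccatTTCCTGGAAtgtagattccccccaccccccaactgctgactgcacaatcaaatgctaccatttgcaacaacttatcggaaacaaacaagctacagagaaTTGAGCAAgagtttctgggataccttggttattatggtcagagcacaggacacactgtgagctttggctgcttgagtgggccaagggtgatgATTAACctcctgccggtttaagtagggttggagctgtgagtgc
Fgb: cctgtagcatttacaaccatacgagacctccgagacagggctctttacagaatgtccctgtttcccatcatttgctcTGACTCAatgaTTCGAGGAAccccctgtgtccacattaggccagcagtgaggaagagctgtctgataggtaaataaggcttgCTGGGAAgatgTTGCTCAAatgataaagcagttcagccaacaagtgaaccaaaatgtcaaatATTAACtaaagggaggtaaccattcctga
The motifs were the partial HNF1 site GTTAAT, the STAT3 type II element CTGGGAA and the STAT site TTCNNNGAA. The others were the C/EBP site TTNNGCAA, the AP-1 site TGANTCA and the TATA box TATAAA.

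The STAT3 type II element was in the Fgg stretch, 13 to 7 bases before the start, and in the Fgb stretch, 91 to 85 bases before it. No such match was in the Fga stretch. Among 32851 promoters of the table, 9.10% held this element in the same length. The partial HNF1 site, found in 6.43% of promoters, was in the Fga and Fgb stretches, 43 to 38 and 29 to 24 bases before the start. Both of these also held a C/EBP match (9.56% of promoters) and a STAT match (7.02% of promoters), and Fgb held an AP-1 match (6.75%). The marked matches did not overlap one another, and no TATA box match (12.4% of promoters) was in any of the 3 stretches. Of the other genes, F3 had 2 AP-1 matches, Plaur an AP-1 and a C/EBP match, and the 2 annotated starts of F13a1 had 0 matches to the 6 motifs. A match describes letters only.

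Of the 12 probes, 11 were well above background on all 4 arrays and 1 probe of F13a1 was not well above it on any. Among these 11, 4 probes (F13a1, Fgg, Plat and Thbd) had the 2 BDL values above the sham values, and 1 probe of F3 had them below. Over all 32280 retained probes, the groups did not overlap for 36.7%, made up of 18.2% with BDL higher and 18.5% with BDL lower, and nothing is read from the members' count because their choice used this comparison. Group means were at least 2-fold apart for 2 of the 11 probes, F13a1 and Fgg, both higher in BDL, and for 4.48% of all retained probes (2.00% higher and 2.48% lower).

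**Figure D1:**
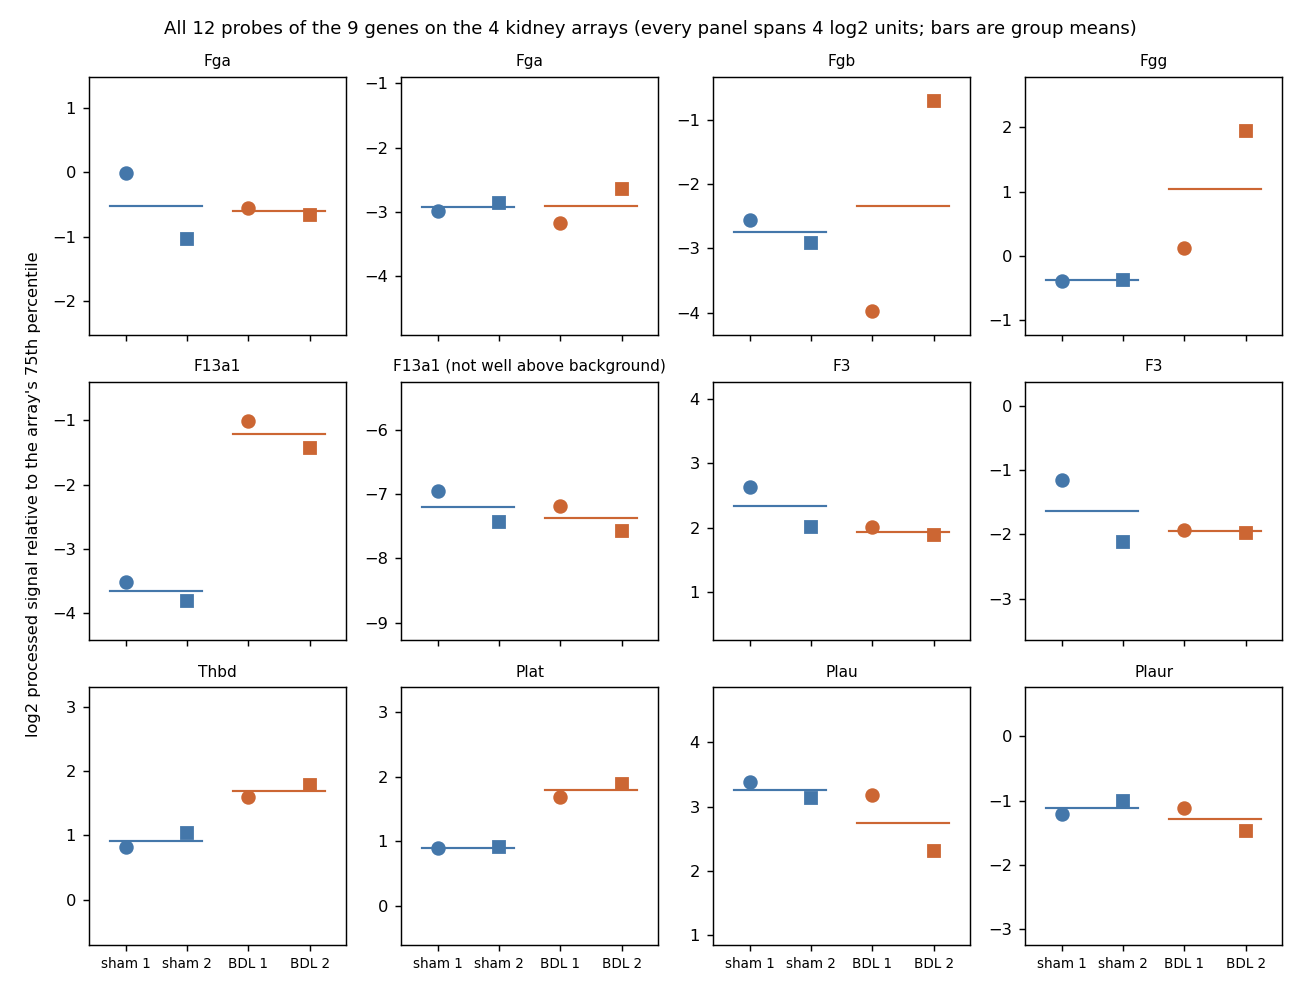
Each panel is 1 probe, with the 4 arrays on the x axis and the log2 processed signal relative to the array's 75th percentile on the y axis; points are single arrays, horizontal bars group means, and every panel spans 4 log2 units. F13a1, Plat and Thbd are high on both BDL arrays, while Fgb and Fgg are high in BDL replicate 2.

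F13a1, whose product in its active form is the transglutaminase that joins fibrin strands, was the gene of the set with the largest difference. Its brighter probe (A_51_P507801) read -3.51 and -3.81 in sham and -1.01 and -1.43 in BDL kidneys, which are processed signals of 62.7, 60.7, 368 and 350 units. Both BDL kidneys were high, and the lower of them was 4.20-fold above the higher sham kidney. The group means were -3.66 ± 0.21 in sham and -1.22 ± 0.30 in BDL kidneys (SD, n = 2), a difference of 2.43 (SE 0.26) or 5.41-fold. Of the 32280 retained probes, 45 had a larger positive difference. With normexp background correction and an offset of 50 added to the signals, the difference was 1.70.

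The second F13a1 probe (A_55_P2186125) read -6.95 and -7.44 in sham and -7.18 and -7.58 in BDL kidneys, and was not well above background on any. It gives no measurement of the gene, and the F13a1 result therefore rests on 1 probe. F13b, the gene of the carrier B subunit of factor XIII, was slightly lower in BDL, at 3.34 and 3.05 in sham and 2.87 and 3.04 in BDL kidneys (-0.24, SE 0.22, limma adjusted p = 0.893).

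Markers of the cells that make factor XIII A, and of red blood cells, were read beside this gene. Of 8 retained platelet and megakaryocyte genes, 7 had their highest value in BDL replicate 1, and their median difference was 1.57. Pf4, a platelet chemokine, was 3.03 in BDL replicate 1, -0.04 in BDL replicate 2 and -0.33 and -0.15 on the sham arrays. In BDL replicate 2 the platelet sum was 2.53, against 2.09 and 2.24 in sham, and F13a1 was -1.43 there. Without BDL replicate 1 the F13a1 difference was 2.22. All 8 retained red blood cell genes were higher in BDL, with a median difference of 1.32, and 7 were highest in BDL replicate 1. Of the 8, 6 did not overlap, against 18.2% of all retained probes with BDL higher and no overlap. Klf1, an erythroid transcription factor gene, was -3.08 and -3.05 in sham and 0.52 and -0.98 in BDL kidneys, a separation of 2.07 like that of F13a1. Macrophage genes summed to 56.6 and 45.1 in sham and 38.8 and 40.6 in BDL kidneys. Most of this sum on every array was Csf1r alone, so it says little of the other members. By sign, 5 of 11 retained members were higher and 6 lower in BDL, with a median difference of -0.06. C1qc, the next brightest, was 1.83 and 0.20 in sham and 0.84 and 1.06 in BDL kidneys, with overlap. Mrc1, the mannose receptor of resident macrophages, was -1.34 and -1.95 in sham and -0.92 and -0.98 in BDL kidneys, and Csf1r, the macrophage growth factor receptor, was 5.40 and 5.27 against 4.86 and 4.92. Cd163 and Lyve1 were not well above background on any array. The part of platelet, red blood cell and macrophage RNA in the F13a1 difference was not tested. In bulk RNA, more cells of a type and more RNA per cell cannot be told apart.

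The 3 fibrinogen genes did not share a pattern over the arrays. Fgg, the gamma chain gene, was -0.39 and -0.37 in the sham kidneys, 0.13 in BDL replicate 1 and 1.95 in BDL replicate 2, or 543, 657, 811 and 3660 signal units. Both BDL values were above sham, but most of the difference lay with BDL replicate 2. The mean difference was 1.42 (SE 0.63), 2.68-fold. Without BDL replicate 2 it was 0.51, and without BDL replicate 1 it was 2.33.

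Fgb, the beta chain gene, was -2.56 and -2.91 in sham kidneys, -3.97 in BDL replicate 1 and -0.71 in BDL replicate 2, or 121, 113, 47.2 and 576 units. The BDL kidneys thus held both the lowest and the highest value, 9.56-fold apart, and the groups overlapped. Only 0.310% of the retained probes had a gap this large between the BDL arrays, whose median gap was 0.23. The group means were -2.74 ± 0.25 in sham and -2.34 ± 2.30 in BDL kidneys (SD, n = 2), a difference of 0.39 (SE 1.09). Its sign depended on the array left out, at -1.24 without BDL replicate 2 and 2.02 without BDL replicate 1.

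Fga, the alpha chain gene, showed no such excess in BDL replicate 2. Its brighter probe (A_51_P193813) was -0.01 and -1.03 in sham and -0.55 and -0.66 in BDL kidneys, so that both BDL values lay between the sham values. The difference was -0.09 (SE 0.39), and it was 0.42 without sham replicate 1 and -0.59 without sham replicate 2. The dimmer probe (A_55_P2123381) was -2.98 and -2.86 in sham and -3.17 and -2.64 in BDL kidneys, a difference of 0.02 (SE 0.26). Between the sham arrays the brighter probe differed by 1.02 and the dimmer one by 0.11, so the 2 probes of Fga did not follow each other.

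Set against the mean of the other 3 arrays, BDL replicate 2 stood 2.43 higher for Fgb (5.40-fold) and 2.16 higher for Fgg (4.48-fold). An excess as large as that of Fgb was seen for 0.102% of retained probes, and one as large as that of Fgg for 0.149%. For Fga the same quantity was -0.14 and 0.37 with the 2 probes. The neighbouring genes outside the cluster were read as well. Plrg1, a splicing factor gene next to Fgb, was 3.15 and 3.17 in sham and 3.25 and 3.21 in BDL kidneys. Lrat, a retinoid-esterifying enzyme gene next to Fgg, was -5.71 and -4.00 in sham and -4.00 and -3.40 in BDL kidneys and was well above background on 1 of the 2 sham arrays, so no fold is given.

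**Figure D2:**
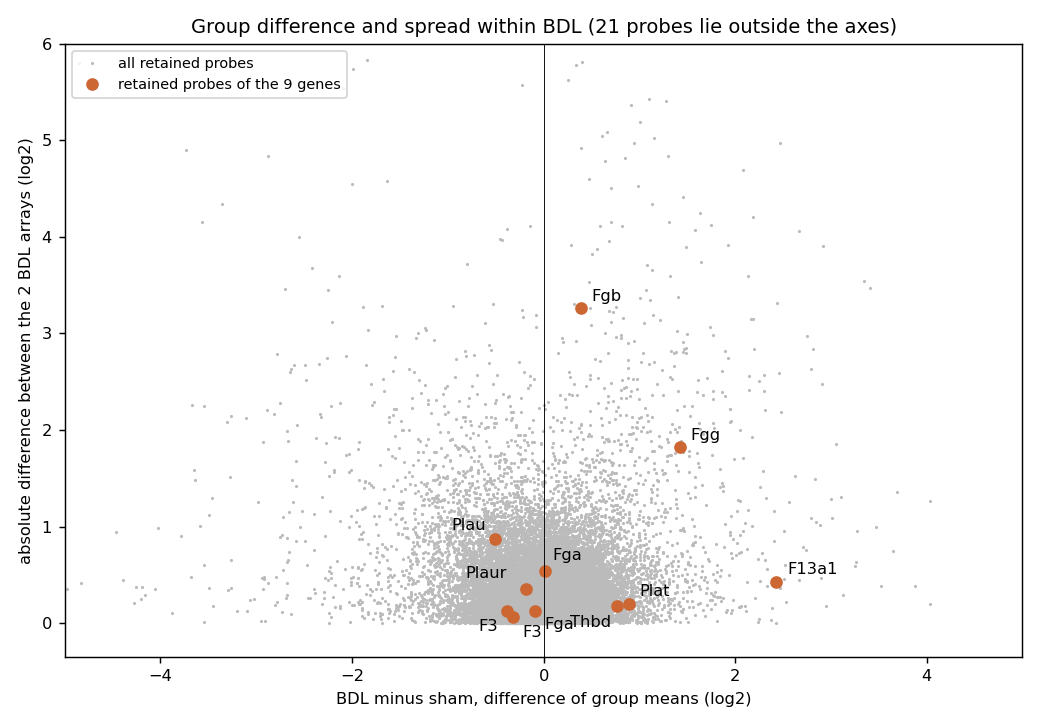
Each point is 1 probe, with the BDL minus sham difference of group means on the x axis and the absolute difference between the 2 BDL arrays on the y axis, both in log2 units; grey points are all retained probes and orange points the 11 retained probes of the 9 genes. F13a1 combines a large group difference with a small gap of 0.43 between BDL arrays, while Fgb has a gap of 3.26 and Fgg one of 1.82.

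Fibrinogen transcripts are typical of hepatocytes, and the hepatocyte list was read array by array. It summed to 31.0 and 24.8 on the sham arrays, 21.8 in BDL replicate 1 and 18.0 in BDL replicate 2. The step between the BDL arrays lay mainly with Serpinc1, the antithrombin gene, at 2.72 in BDL replicate 1 and 1.42 in BDL replicate 2. Other members went either way, such as Apob at 1.48 and 0.54 and Apoa2 at 2.71 and 2.92. Alb, the albumin gene, was -1.13 and -2.29 in sham and -2.73 and -2.08 in BDL kidneys, and the transthyretin gene Ttr was -1.51 and -2.11 against -3.16 and -2.92. Of 11 retained hepatocyte genes, 2 were higher and 9 lower in BDL, with a median difference of -0.44. Apoa1 and Tdo2 were not well above background on any array. Tubular injury genes, which in kidney can accompany fibrinogen expression, were higher in BDL in 10 of 10 members (median 0.95). Of these, 7 did not overlap, against 18.2% of all retained probes with BDL higher and no overlap. Of the 10, 9 were highest in BDL replicate 1, 1 in sham replicate 1 and 0 in BDL replicate 2. The urothelial list was also highest in BDL replicate 1, in 8 of its 9 retained genes. The keratin genes of the injury list, Krt20 (1.81 and -4.82 in BDL replicates 1 and 2) and Krt18 (5.34 and 3.28), had wide gaps there. The part of urothelial RNA in the injury list was not tested. Sox9 read -3.57 on both BDL arrays. The part of hepatocyte RNA and of tubular injury in the fibrinogen values was not tested.

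F3 encodes tissue factor, the membrane receptor that starts coagulation by binding factor VII. Its brighter probe (A_55_P1971889) was 2.64 and 2.01 in sham and 2.01 and 1.88 in BDL kidneys, with sham replicate 1 alone standing apart and the groups separated by 0.00 log2 units. The difference was -0.38 (SE 0.28), and it was -0.07 without sham replicate 1. The other probe (A_65_P08971) was -1.15 and -2.12 in sham and -1.93 and -1.98 in BDL kidneys, a difference of -0.32 (SE 0.37) that turned to 0.17 without sham replicate 1. On both probes sham replicate 1 was the highest array, as it was for the brighter Fga probe. It was also the highest array for 9 of 10 retained interferon response genes (not Rsad2) and for 8 of 11 retained macrophage genes. The part of either list in these values was not tested.

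Thbd encodes thrombomodulin, which binds thrombin on endothelium and turns it to the activation of protein C. It was 0.82 and 1.03 in sham and 1.60 and 1.78 in BDL kidneys, without overlap. The means were 0.92 ± 0.15 and 1.69 ± 0.13 (SD, n = 2), a difference of 0.77 (SE 0.21) or 1.71-fold, which stayed between 0.67 and 0.88 when any 1 array was left out.

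Plat, whose product is the tissue-type plasminogen activator that works on fibrin, was 0.89 and 0.91 in sham and 1.69 and 1.89 in BDL kidneys. Every BDL value was at least 1.71-fold above every sham value. The means were 0.90 ± 0.02 and 1.79 ± 0.14 (SD, n = 2), a difference of 0.89 (SE 0.20) or 1.85-fold, and between 0.79 and 0.99 with any 1 array left out. Plat and Thbd had nearly the same profile. After centring each gene on its own mean, they differed by a root mean square of 0.09 log2 units over the 4 arrays, the smallest distance among the 36 pairs of the 9 genes.

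Both genes are known from endothelium, so endothelial markers were set beside them. The endothelial list summed to 65.2 in sham replicate 1, 91.9 in sham replicate 2 and 92.9 and 86.4 on the BDL arrays. Of the 13 retained members, 12 were higher and 1 lower in BDL, with a median difference of 0.20. The groups did not overlap for 3 of the higher and 1 of the lower. Over all retained probes the groups did not overlap for 36.7%, so nothing is read from this count. Flt1, a VEGF receptor gene, was 3.52 and 3.69 in sham and 4.02 and 3.92 in BDL kidneys, without overlap. Cdh5, the endothelial cadherin gene, was 0.27 and 1.06 in sham and 0.85 and 0.80 in BDL kidneys. Without sham replicate 1 the difference was 0.87 for Plat and 0.67 for Thbd. The part of endothelial RNA in these differences was not tested.

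Plau, the urokinase gene, was 3.39 and 3.13 in sham and 3.19 and 2.32 in BDL kidneys, and the groups overlapped. BDL replicate 2 was the low array. The difference was -0.51 (SE 0.35), or 1.42-fold lower, and without BDL replicate 2 it was -0.07. Plaur, which anchors urokinase to the cell surface, was -1.21 and -1.01 in sham and -1.12 and -1.47 in BDL kidneys, again with overlap and with BDL replicate 2 lowest (-0.18, SE 0.23). The 2 plasminogen activators therefore differed in direction by their group means, Plat at 0.89 and Plau at -0.51. The difference between them was not tested.

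The other genes of coagulation and fibrinolysis were read from 6 lists of 64 genes, of which 53 were measured by a retained probe. With limma, 0 of the 53 passed an adjusted p of 0.05, higher or lower, and the lowest adjusted value was 0.794. Without adjustment 4 had a p under 0.05, Klkb1, Serpinc1, Pros1 and F2r. Over all retained probes, 0.00% passed the adjusted threshold and 5.65% (1823 probes) had an unadjusted p under 0.05. By sign alone 27 of the 53 were higher and 26 lower, with a median difference of 0.00, the same as over all retained probes. The BDL values were both above the sham values for 11 genes and both below for 8, against 18.2% and 18.5% of all retained probes.

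**Figure D3:**
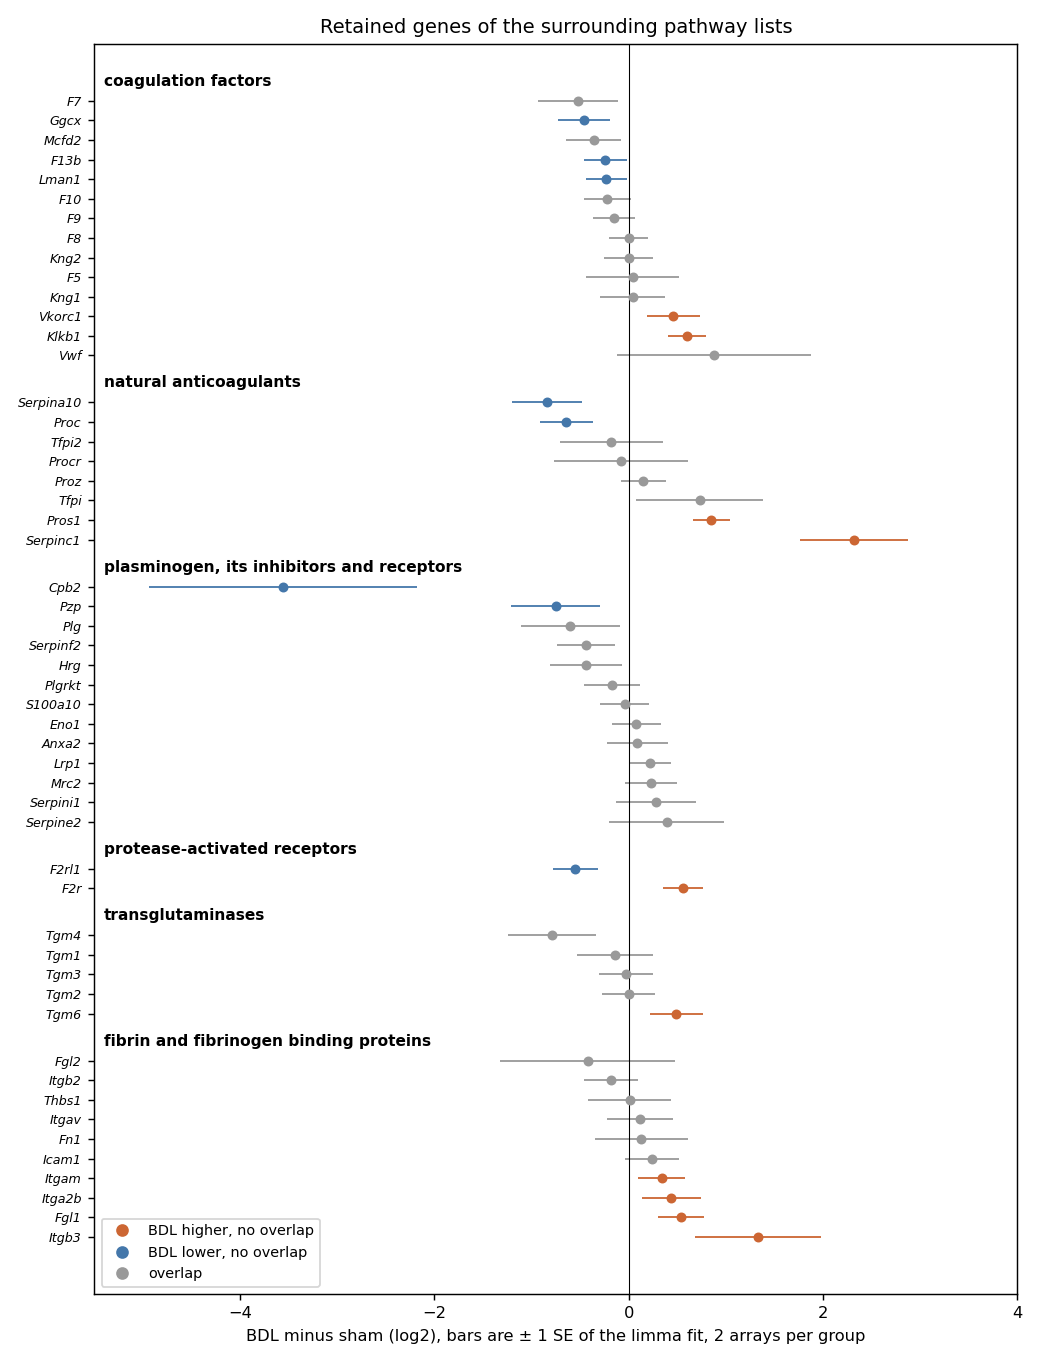
Differences, BDL minus sham in log2 units, are shown on the x axis for retained genes of the 6 lists, each on its own line of the y axis, with bars of 1 SE of the limma fit; orange and blue mark genes whose groups do not overlap. Most genes lie within 1 log2 unit of 0, and Cpb2, at -3.56, and Serpinc1, at 2.32, lie farthest from it.

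Among 14 retained coagulation factor genes, 5 were higher and 9 lower in BDL, with a median of -0.08. Klkb1, which encodes plasma prekallikrein, was -0.98 and -1.12 in sham and -0.49 and -0.40 in BDL kidneys (0.60, SE 0.20, limma adjusted p = 0.864). Vkorc1, the vitamin K epoxide reductase gene, was 5.33 and 5.21 against 6.02 and 5.45 (0.46, SE 0.27), and its second probe gave 0.51. Ggcx, the carboxylase that uses the reduced vitamin, was -0.01 and 0.14 against -0.66 and -0.12 (-0.46, SE 0.27). Prothrombin (F2), F11 and F12 had no retained probe.

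The natural anticoagulants held the 2 lowest p-values of these lists. Serpinc1, the antithrombin gene, was 0.22 and -0.72 in sham and 2.72 and 1.42 in BDL kidneys, 4.99-fold higher by the means (2.32, SE 0.56, limma adjusted p = 0.809). It is also on the hepatocyte list, where 9 of the 11 retained genes went the other way. Pros1, whose product protein S assists activated protein C, was 0.08 and 0.03 against 0.96 and 0.84, with little spread in either group (0.85, SE 0.19, limma adjusted p = 0.794). Proc, the protein C gene, was lower, at 7.04 and 6.47 against 6.12 and 6.10 (-0.64, SE 0.27). The list of 8 retained genes had 4 higher and 4 lower and a median of 0.04.

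Plasminogen, its inhibitors and its receptors had 7 of 14 retained genes on each side and a median of 0.02. Cpb2 encodes the carboxypeptidase (TAFI) that thrombin bound to thrombomodulin activates and that slows fibrinolysis. It was 3.89 and 3.74 in sham, 2.33 in BDL replicate 1 and -1.82 in BDL replicate 2, lower on both BDL arrays and by far the most on the second. The difference was -3.56 (SE 1.38, limma adjusted p = 0.867). Pzp, a broad protease inhibitor related to alpha-2-macroglobulin, was 5.89 and 4.64 against 4.57 and 4.46 (-0.75, SE 0.46), with sham replicate 1 high. Plasminogen itself (Plg) was -2.26 and -3.51 against -3.15 and -3.84, with overlap.

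The thrombin receptor gene F2r was 2.34 and 2.55 in sham and 3.10 and 2.92 in BDL kidneys (0.56, SE 0.21, limma adjusted p = 0.867). F2rl1, a receptor that trypsin-like proteases activate, was lower, at -3.35 and -3.29 against -4.07 and -3.68 (-0.55, SE 0.23). The other 2 receptors of the family had no retained probe. Among the transglutaminases, relatives of F13a1, the widespread tissue enzyme gene Tgm2 was 5.95 and 5.42 in sham and 5.55 and 5.83 in BDL kidneys, a difference of 0.00 (SE 0.27). Of the 5 retained members, Tgm6 alone did not overlap. It had no sham array well above background and was 1.40-fold higher in BDL by the means (0.49, SE 0.27). The bound on this fold was also 1.40, because the sham signals themselves entered it, so no minimum change is shown.

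Among 10 genes for proteins that bind fibrin or fibrinogen, 8 were higher in BDL by sign and the median was 0.18. Itgb3, the integrin beta 3 gene of platelets and other cells, was -0.80 and -1.55 in sham, 1.03 in BDL replicate 1 and -0.72 in BDL replicate 2 (1.33, SE 0.65). Its partner on platelets, Itga2b, was -3.04 and -3.10 in sham and -2.27 and -2.98 in BDL kidneys (0.44, SE 0.30). Both were highest in BDL replicate 1, as were the platelet markers. Itgam, whose integrin binds fibrinogen on leukocytes, was 4.40 and 4.20 against 4.85 and 4.43 (0.34, SE 0.24). Itgb2, a leukocyte integrin gene of the same list, was -0.60 and -1.21 against -1.09 and -1.08, with overlap (-0.18, SE 0.28). Fgl1, a fibrinogen-like liver protein gene, was -4.14 and -4.44 against -3.91 and -3.59 (0.54, SE 0.24), while a second probe below the filter differed by -1.23.

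**Figure D4:**
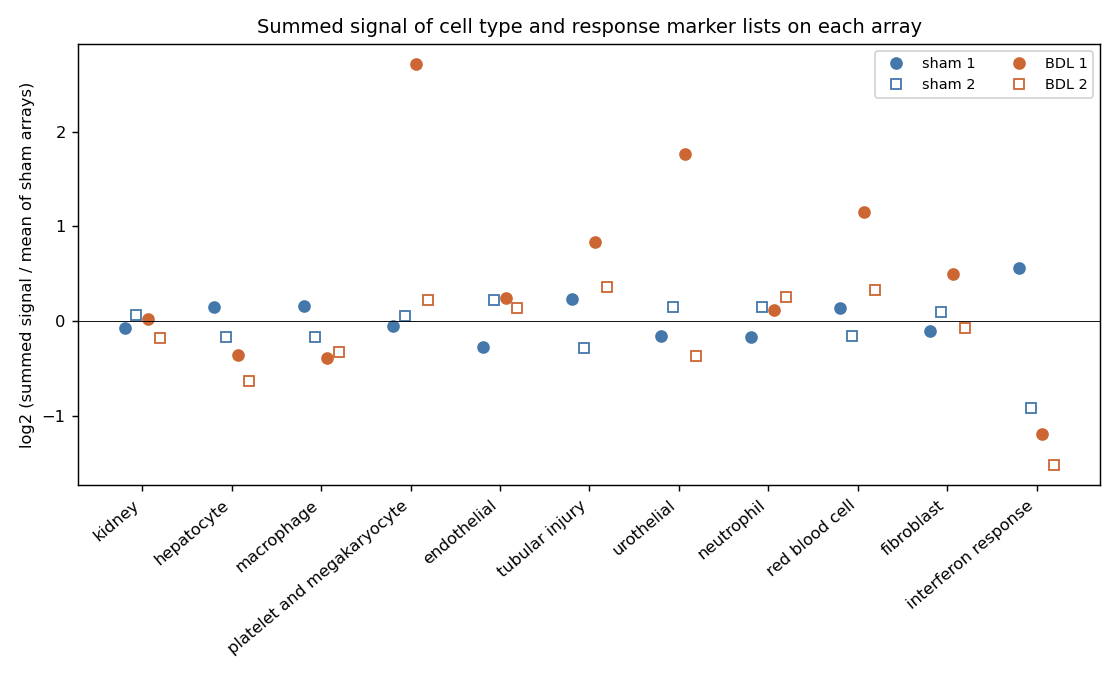
Summed linear signal of each marker list on each array, as the log2 ratio to the mean of the sham arrays on the y axis, with the lists on the x axis; filled circles are replicate 1 and open squares replicate 2 of each group. BDL replicate 1 stands high for platelet, urothelial and red blood cell genes. The hepatocyte sum is lowest in BDL replicate 2, and its step from BDL replicate 1 lies mainly with Serpinc1.

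Profiles over the 4 arrays were compared with those of 15021 other named genes, each centred on its own mean, by the root mean square difference. F13a1 was closest to Sntg2 (0.094 log2 units), which alone lay within 0.1. The next were B3gnt3, which was well above background on 0 of the 2 sham arrays, so that its distance is not given, and Rarres2 (0.194). Rarres2, the chemerin gene, was 3.86 and 3.66 in sham and 6.75 and 5.80 in BDL kidneys. Fgb was closest to Zfp951 (0.187), Rgs14 (0.233) and Prtn3 (0.350), and no gene lay within 0.1 of Fgb or Fgg. The 3 genes closest to Fgg, Cacng8, Dpysl4 and Zfp808, were well above background on 1, 0 and 1 of the 2 sham arrays, so their distances are not given. Plat was closest to Pmepa1 (0.037) and Thbd to Myc (0.025), with 17 and 23 genes within 0.1. More genes lay within 0.1 of Plaur (244) and of F3 (213), and a likeness over 4 arrays says nothing of shared function.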

How the data were processed

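Agilent Feature Extraction 11.0.1.1 quantified the spots, as the submitters' processing notes name it. Its processed signal, deposited per array, is a linear intensity after background subtraction, with no scaling across arrays recorded per the file headers. The deposited value table of the authors also holds intensities, equal to the processed signal over 1 constant per array (709, 844, 739 and 939.8), and what each constant was set on is unknown. Its column medians were 0.328, 0.339, 0.329 and 0.330.

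Control and outlier spots were left out, spots of a probe averaged as log2, and each array's 75th percentile subtracted. Retained probes (32280 of 55668) had both arrays of 1 or both groups well above background. Accessions were named through a RefSeq table of GRCm38.p6, used for names and neighbours since the array grid lists mm9. All retained probes were fitted with limma 3.58.1 in R 4.3.3 (two-sided, operation as the only term, Benjamini-Hochberg adjustment), checked on simulated data. The arrays shared 1 slide, so no batch term could be fitted. For list genes the brightest retained probe was used. The bound on the Tgm6 fold used its BDL mean. This was set against, per sham array, the larger of the probe's signal there and the weakest signal well above background.

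The 9 genes and the lists were chosen with earlier results of these data known. All member probes are named, with the 3 nearest profiles (fewer printed for some) and list genes read beside a result. Of each list, up to 3 genes without overlap and with the smallest p are named. F13b, Plg, Tgm2, Itgam, Itgb2, F2, F11, F12 and the single markers other than the brightest were named after their values were seen. RefSeq held promoters of 6 of the 9 genes. The values of 1 gene that this rule selects are not reported here; it is counted in its list and not drawn.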

Additional observations from a re-analysis of the deposited data

How the results depend on the processing

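Quantile normalization, the percentile over well-detected probes, normexp, other filters on dim probes, the deposited value table, array weights, 1 probe per gene and leaving out each array in turn were tried. The count of probes past the adjusted threshold was 0 in every fit, with 1056 to 3852 probes at an unadjusted p under 0.05, and 0 listed genes passed in any of them. Between 2 and 3 member probes stood at least 2-fold apart with any 1 array left out. They were F13a1, Fgg and Fgb without BDL replicate 1, and F13a1 (2.65) and Fgb (-1.24), in opposite directions, without BDL replicate 2, where Fgg was 0.51. They were F13a1 and Fgg in the other fits, and this count was not made with array weights or 1 probe per gene. With the replicate number as a block, 0 probes passed (1964 at an unadjusted p under 0.05). The treatment protocol speaks of pairs of RNA, but the labels do not say whether same-numbered samples are pairs. Same-numbered samples did not deviate together (r = 0.07 over 32280 probes, across genes), which cannot show that they are unpaired. The main fit treats the samples as unpaired. F13a1 moved beyond its spread under normexp. Sign changes occurred for Fgb, both Fga probes and the dimmer F3 probe. With 2 arrays per group, 1 array can carry a difference, as for Fgb, Fgg and Plau.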
